A study of Mus musculus with 4 samples.

Results

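Adult alveolar type II (AT2) cells at postnatal day 60 (P60) are described here from 1 single-cell library, as 2011 of the 2093 cells in that library and of the 9519 cells in the whole series. The cells were chosen by measured values: a cell was kept when its UMIs on Sftpc, Sftpb, Sftpa1, Slc34a2 and Lamp3, scaled to 10000 per cell, summed to at least 0.5 times the median of that sum over all cells of the library. The median was 1957.17 and the limit 978.586, which kept 96.1% of the cells (exact Clopper-Pearson interval 95.2 to 96.9%) and left 82. A UMI is a molecular identifier that counts a captured transcript once. The mice carried Sftpc-CreER, Rosa26-Zsgreen and Hopx-RFP on a mixed FVB/C57BL6 background and had been given tamoxifen, so that cells with a history of Sftpc promoter activity carry the green reporter. The AT2 library holds GFP+CD45- cells of P60 lungs freed with neutral protease and DNase I. The other libraries hold RFP+Pdpn+GFP-CD45- AT1 cells of the same genotype and treatment at P3, P15 and P60, and of these only the 1337 AT1 cells at P60 were used, as a measure of how often a UMI turns up in cells of another type. They were freed with elastase and type I collagenase in addition. The sources used here do not say how many animals were pooled. With 1 library cells are not replicates, no test between conditions is given, and every interval covers counting error only.

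AT2 cells are the cuboidal cells of the alveolus that make surfactant, the film of lipid and protein that lowers surface tension at the air surface. They store it in lysosome-related lamellar bodies, release it by exocytosis, take up and recycle used lipid, and secrete proteins that bind or digest microbes. They also serve as stem cells of the alveolus, dividing rarely in the healthy adult lung and giving rise to flat AT1 cells.

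The kept AT2 cells had a median of 4907 UMIs (2567 at the 5th and 7896 at the 95th percentile) and 1556 detected genes, against 2477 UMIs and 1147 genes in the cells not kept. Mitochondrial genes took a median of 6.08% of the UMIs of a kept cell and ribosomal protein genes 14.3%. The AT2 library shared 3 to 11 cell barcodes with each AT1 library. No doublet caller was run; 20 kept cells (0.995%, exact Clopper-Pearson interval 0.609 to 1.53%) had more than 2 times the median UMIs, and in them the rule genes took a median of 18.8% of UMIs, against 19.7% in the other kept cells.

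Markers that the rule did not use are given as a description too, since the lists were chosen with earlier results of these data known. All 20 further AT2 markers were at 100 CPM (UMIs of the gene in 1000000 UMIs summed over the cells) or more in the kept cells, where 8.38% of all 12509 listed genes reached that level. That 8.38% applies to every later count of list genes at 100 CPM or more. Such a level is not particular to AT2 cells. Cldn18, which is also on the AT1 list, stood at 667.1 CPM in kept cells and 2835 CPM in AT1 cells at P60. The marker Scd1, a desaturase that makes monounsaturated fatty acids, stood at 4784 CPM with a UMI in 100% of the cells. The rule genes themselves are given as a description only. They took 9.79% of UMIs in the lowest kept cell, 19.7% in the median cell and 30.7% in the highest. Just inside the limit stood cells with sums of 979.275, 992.844 and 1001.22 per 10000, and just outside it cells with 977.791, 965.225 and 957.639. Within 10% of the limit lay 19 cells above it and 13 below, so the limit falls in a thinly filled stretch, as the histogram of these sums shows.

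**Figure D1:**
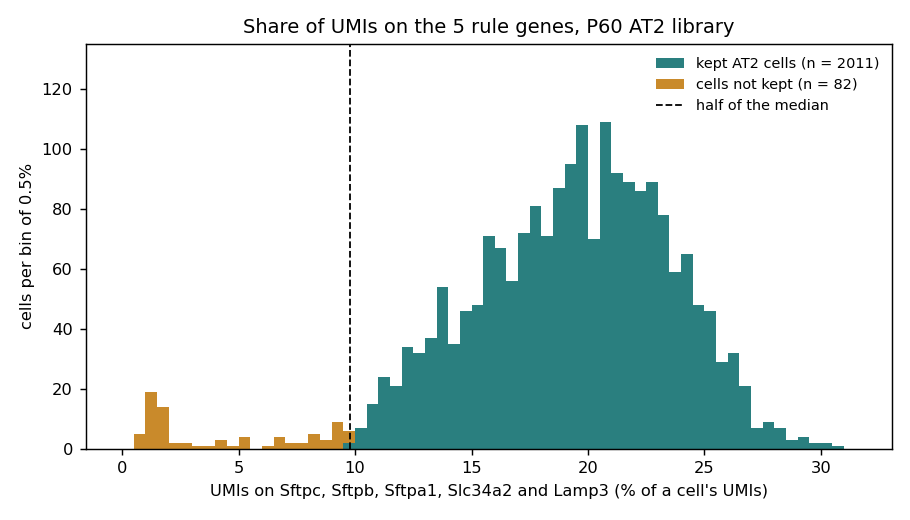
Histogram of the share of a cell's UMIs on the 5 rule genes, in percent, with kept AT2 cells in teal and cells not kept in orange, and the limit as a dashed line. The kept cells form 1 broad peak between 9.79 and 30.7%, and most of the 82 other cells lie below 5% or next to the limit.

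The transcriptome of the kept cells was top-heavy and led by surfactant. Sftpc alone took 13.7% of all 10123201 UMIs, the 10 highest genes took 31.3%, and 71 genes held 50% of the UMIs or more. At 10000 CPM or more stood 8 genes, and at 100 CPM or more 1048 genes. A 3′ protocol gives about 1 tag per transcript, so levels of different genes are compared in CPM without a length correction. Of the listed genes 1073 were at 0, which allows a level of up to 0.296 CPM at a limit of 3 counts.

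**Figure D2:**
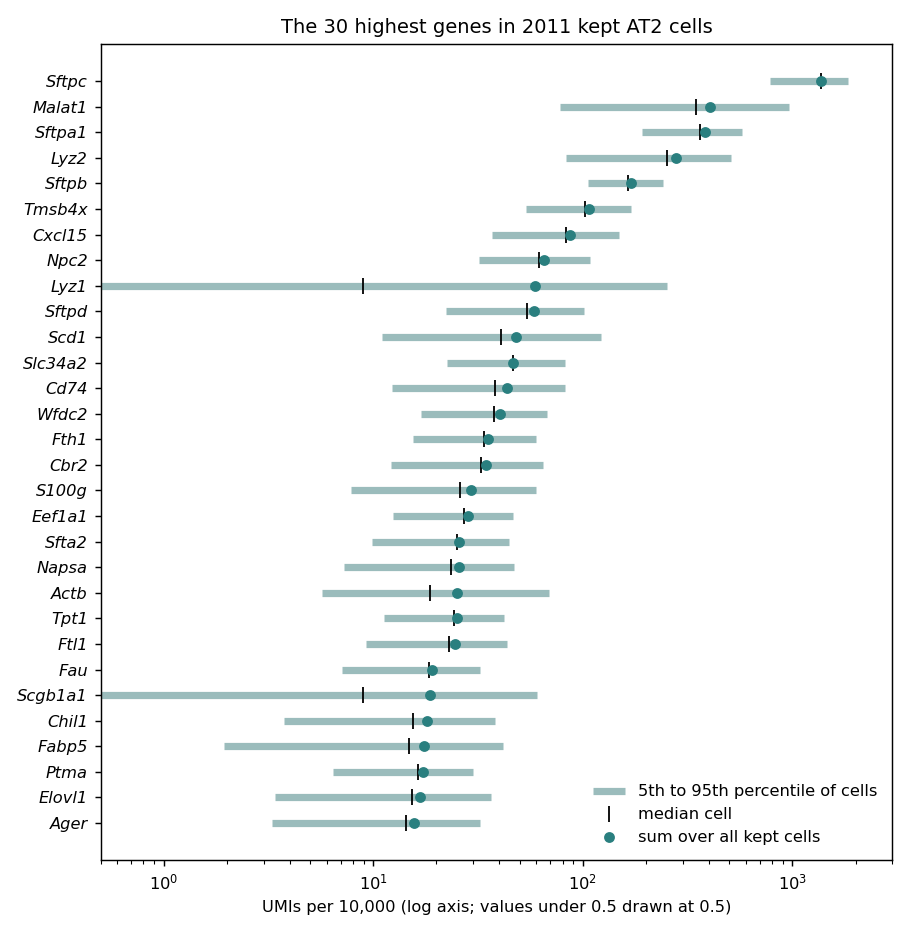
The 30 highest genes of the kept AT2 cells apart from ribosomal protein, mitochondrial, haemoglobin and provisional symbols, in UMIs per 10000 on a log axis, with the sum over all cells as a dot, the median cell as a tick and the 5th to 95th percentile of cells as a bar. Sftpc leads with a median of 1366 per 10000, and Lyz1 and Scgb1a1 have the widest bars, with medians of 8.95 and 8.92.

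Sftpc, which encodes the hydrophobic surfactant protein C and lies at chr14:70520949-70524081 (mm10, minus strand, protein coding), was the highest gene. It had 485.9 UMIs per 10000 in the lowest cell, 1366 in the median cell and 2451 in the highest, and summed to 137096 CPM (exact Poisson interval 136868 to 137324). Every kept cell carried it at a high level. Sftpa1, the collectin surfactant protein A, had 83.98, 363.9 and 734.1 UMIs per 10000 in the lowest, median and highest cell. Sftpb, needed for lamellar body formation and film spreading, had 60.29, 164.5 and 361.9. These proteins chose the cells, so their presence in all kept cells follows in part from the rule. Sftpd, the second lung collectin, was not part of the rule and stood at 5878 CPM with a UMI in 99.9% of cells. Napsa, an aspartic protease that processes pro-SP-B and pro-SP-C, stood at 2562 CPM, and Ctsh, a cysteine protease with the same substrates, at 1026 CPM. Of 14 genes on the list of surfactant proteins and their processing, 10 were at 100 CPM or more and the list took 20.6% of all UMIs.

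UMIs of AT2 genes also turned up outside the kept cells. Sftpc had a UMI in 100% of the 44 cells not kept that could be thinned to 2000 UMIs, at 27957 CPM in all 82, and in 35% of the AT1 cells at P60 (1582 CPM). Median depths were 4907 UMIs for the kept cells, 2477 for the cells not kept and 5279 for the AT1 cells at P60. The cells not kept may hold AT2 cells of low content as well as other types, and their part and that of free RNA in this level were not tested.

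Variation between cells was measured as excess CV2, the squared coefficient of variation that remains after counting error and cell depth are taken out. For Sftpc it was 0.05, the square of a coefficient of variation of 0.224. Among the 1048 genes at 100 CPM or more the median excess CV2 was 0.0794 (quartiles 0.0365 and 0.144), and 54 genes (5.15%) had 0.5 or more, a size chosen for description. None of the 90 ribosomal protein genes among them did. For 421 genes the value lay within 2 SD of counting error alone, so that variation between cells was not detectable at this depth.

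**Figure D3:**
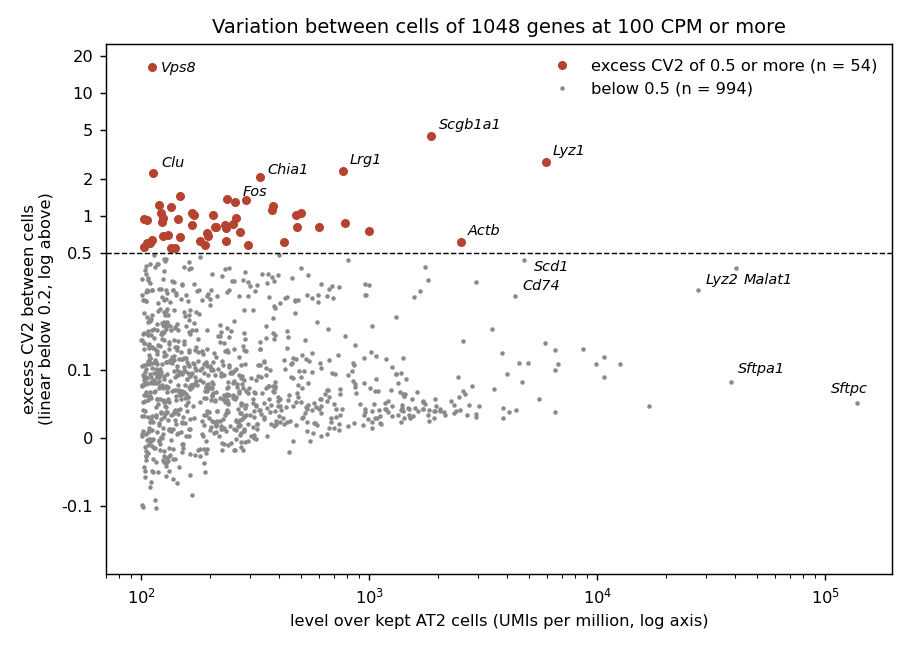
Excess CV2 between kept AT2 cells against level in CPM on a log axis, for 1048 genes, with the 54 genes at 0.5 or more in red. The vertical axis is linear below 0.2 and logarithmic above. Vps8, Scgb1a1 and Lyz1 stand highest at 16.2, 4.45 and 2.72, while Sftpc at the far right lies at 0.05.

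The spread of the rule genes is a description, since the rule trims their low end. Excess CV2 was 0.05 for Sftpc, 0.05 for Sftpb, 0.08 for Sftpa1, 0.08 for Slc34a2 and 0.09 for Lamp3. Outside the rule, Sftpd had 0.14, Napsa 0.14 and Ctsh 0.16, above the median of 0.0794 over all genes. The other list genes at 100 CPM or more lay below it: Sfta2 had 0.07, Adgrf5 0.06, Bri3 0.04 and Itm2b 0.04. None of the 10 surfactant list genes at 100 CPM or more reached 0.5, where 5.15% of all genes at that level did, so nothing is read from this count.

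Lamellar body and lipid genes differed widely in how many kept cells carried them. Slc34a2 and Lamp3 are rule genes, so their presence follows in part from the rule. Slc34a2, the sodium phosphate cotransporter of the apical membrane, had 0, 46.3 and 143.8 UMIs per 10000 in the lowest, median and highest cell and stood at 4664 CPM. Lamp3, a lysosomal membrane protein found on lamellar bodies, stood at 1450 CPM. Abca3, the transporter that loads phospholipid into lamellar bodies, was at 704.1 CPM with a UMI in 94.8% of cells. Lpcat1, which makes saturated phosphatidylcholine, was at 1339 CPM. Hps1 and Lyst, on the same list, had a UMI in 1.89 and 1.84% of cells, and Abcg1 was listed at 0. Of the 28 genes on the lamellar body and surfactant lipid transport list, 12 were at 100 CPM or more and none of these reached an excess CV2 of 0.5. Of the 33 fatty acid and phospholipid synthesis genes, 13 were at 100 CPM or more, also with none at 0.5. Over all listed genes 8.38% were at 100 CPM or more. Of all genes at that level 5.15% reached 0.5, so nothing is read from these counts.

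Scd1 was the most variable gene of the fatty acid and phospholipid list at 100 CPM or more. It lies at chr19:44394455-44407879 (mm10, minus strand). The lowest cell had 1.52 UMIs per 10000, the median cell 40.7 and the highest 229.5, and excess CV2 was 0.44. Insig1, a sterol-regulated retention protein, and Chka, a choline kinase, followed at 0.28 each and 170.6 and 150.9 CPM. Elovl1, a fatty acid elongase, had 0.24 at 1669 CPM, and Fasn, fatty acid synthase, 0.14 at 523.8 CPM. Fabp5, a fatty acid carrier on the lamellar body and lipid transport list, had 0.38 at 1748 CPM. Cholesterol synthesis genes were lower and more variable: 5 of 22 were at 100 CPM or more, where 8.38% of all listed genes were. Of these 5, 3 reached 0.5, where 5.15% of all genes at that level did. Fdps, which makes farnesyl diphosphate, had an excess CV2 of 0.68 at 195.7 CPM, Hmgcs1, which makes HMG-CoA, 0.68 at 124.2 CPM, and Idi1, an isomerase of the same pathway, 0.55 at 140 CPM. Summed per cell, the fatty acid list had an excess CV2 of 0.149 and the cholesterol list 0.319.

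The innate defence list took 9.73% of UMIs, with 25 of its 29 genes listed in the file. That share includes the rule gene Sftpa1 at 38400.5 CPM, Sftpd, and S100g at 2923 CPM. Not all of the list encodes secreted proteins. Lyz2, a lysozyme that cuts bacterial cell walls, had 10.6, 251.1 and 890.6 UMIs per 10000 in the lowest, median and highest cell and stood at 27686 CPM. Cxcl15, a chemokine that attracts neutrophils, stood at 8683 CPM, and Wfdc2, a secreted protease inhibitor, at 4010 CPM. Of all genes at 100 CPM or more 5.15% reached an excess CV2 of 0.5, and of the 12 list genes at that level 5 did. They were Lyz1 (2.72), Slpi (1.02), a protease inhibitor, Il33 (0.95), an alarmin cytokine, Lcn2 (0.76), which sequesters bacterial siderophores, and Hc (0.61), complement component C5. Chil1, a chitinase-like protein, had 0.30 at 1806 CPM.

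Lyz1 and Lyz2 are neighbouring lysozyme genes, at chr10:117287797-117292868 and chr10:117277331-117282321 (mm10, both minus strand), 5.48 kb apart. Their upstream sequences are shown because these near-copies differed in how they varied between cells, with excess CV2 of 2.72 for Lyz1 and 0.25 for Lyz2. The 250 bases before each annotated start are given in the gene's own direction from RefSeq (GRCm38.p6), at chr10:117292869-117293118 for Lyz1 and chr10:117282273-117282522 for Lyz2. Capitals mark bases that differ or have no partner in a global alignment of the 300-base windows.
Lyz1: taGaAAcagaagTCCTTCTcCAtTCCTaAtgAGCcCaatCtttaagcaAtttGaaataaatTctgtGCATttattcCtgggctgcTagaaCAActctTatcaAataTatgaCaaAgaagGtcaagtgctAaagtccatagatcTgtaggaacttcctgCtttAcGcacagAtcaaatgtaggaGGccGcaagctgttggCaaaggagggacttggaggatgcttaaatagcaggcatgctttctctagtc
Lyz2: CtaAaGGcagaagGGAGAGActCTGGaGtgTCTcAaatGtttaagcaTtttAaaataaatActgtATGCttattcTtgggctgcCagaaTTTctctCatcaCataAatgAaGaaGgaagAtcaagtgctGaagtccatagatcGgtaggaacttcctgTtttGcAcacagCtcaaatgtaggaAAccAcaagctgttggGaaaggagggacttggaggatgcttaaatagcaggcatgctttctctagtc
Each stretch has 50 such bases, of which 8 fall in the last 100. Over the 300-base windows, which run on to 50 bases after the start, identity was 83.6% and the longest shared run 86 bases. Searched on both strands, CCAAT occurred once in Lyz1, 216 bases before the start, and not in the Lyz2 window; 37.4% of all 32851 promoter windows hold it. CACTNNAG, the core of the NKX2-1 site, occurred once in Lyz2, 228 bases before the start on the opposite strand, and not in the Lyz1 window; 16% of all windows hold it. TATAAA was in neither, and 13.6% of windows hold it. These letter matches do not overlap each other and show no binding.

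Lyz1 separated the cells into a low and a high range. It had 0, 8.95 and 826.2 UMIs per 10000 in the lowest, median and highest cell and 5922 CPM in all. No UMI was found in 102 cells (5.07%, exact Clopper-Pearson interval 4.15 to 6.12%), 962 cells (47.8%) had fewer than 10 per 10000, 331 (16.5%) had 10 to below 50, and 616 (30.6%, interval 28.6 to 32.7%) had 50 or more. These bounds were set after the distribution was seen, and the 331 cells lie near them. The 616 high cells averaged 16858 CPM Lyz1 and 20097 CPM Lyz2. The 962 low cells averaged 523.2 CPM Lyz1 and 31725 CPM Lyz2. Lyz1 thus took 45.6% of the lysozyme UMIs in the high cells and 1.62% in the low cells, while Sftpc stood at 137840 and 137229 CPM. The 102 cells without a Lyz1 UMI were shallower, with a median of 3620 UMIs, and had 25110 CPM Lyz2 and 126030 CPM Sftpc, both below the low cells. For comparison, Lyz1 stood at 1719 CPM in the cells not kept and at 123.1 CPM in the AT1 cells at P60, so the level in the low cells lay between them. Whether it comes from those cells or from RNA outside them was not tested.

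The relation of both lysozymes held after each cell was thinned to 2000 UMIs. Ordered by Lyz1, the 4 successive groups of 491 or 492 cells had 95.5, 671.1, 3036 and 18829 CPM Lyz1 and 29747, 30707, 27671 and 19330 CPM Lyz2. Their sum was 29843, 31378, 30707 and 38159 CPM. Pearson r between Lyz1 and Lyz2 over 1965 cells was -0.36, a description over cells of 1 library whose values share the same 2000 UMIs. Other genes moved little along this order: Lcn2 had 948.2, 969.4, 1002 and 1021 CPM, and Cd74 4181, 4092, 4105 and 4048. The last 300 bases of the Lyz1 and Lyz2 transcripts are 96.9% identical with a shared run of up to 104 bases. Reads could therefore be split between them by the authors' counting, and that part in the result was not tested.

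**Figure D4:**
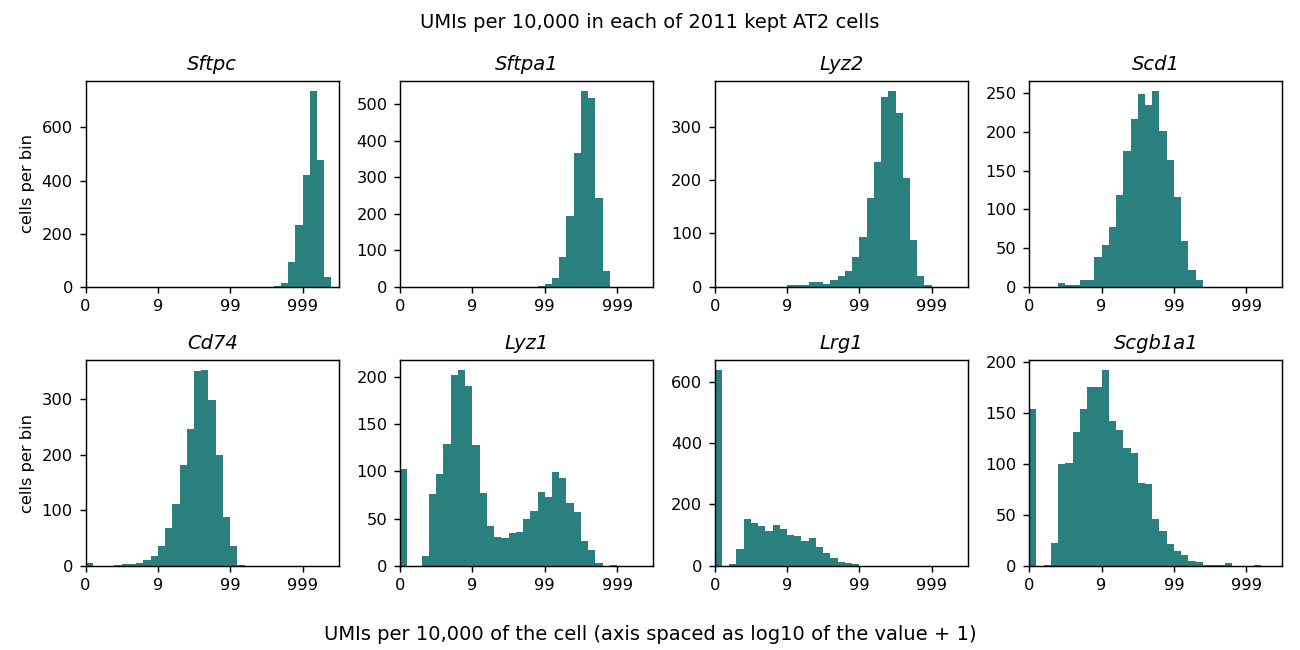
UMIs per 10000 in each of the 2011 kept AT2 cells for 8 genes, as histograms on an axis spaced by log10 of the value + 1. Sftpc, Sftpa1, Lyz2, Scd1 and Cd74 each form 1 peak, Lyz1 forms a peak around 5 and another above 100, and Lrg1 and Scgb1a1 spread out from cells without a UMI.

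Genes of the list for MHC class II, which presents peptides to CD4 T cells, summed to 6861 CPM in the kept cells and 11883 CPM in the cells not kept. The source of these UMIs in the cells not kept was not tested. Cd74, the invariant chain that guides class II molecules, had 0, 38 and 143.1 UMIs per 10000 in the lowest, median and highest cell, and 4347 CPM. H2-Aa stood at 993.9 CPM, H2-Ab1 at 803.1 and H2-Eb1 at 396.7. At 2000 UMIs Cd74 was found in 99% of kept cells, against 18.4% of AT1 cells at P60, whose level was 341 CPM. Not all members were found in most kept cells: H2-DMa had a UMI in 31% and H2-DMb2 in 2.14%. The master regulator Ciita was at 6.03 CPM, with a UMI in 2.93% of kept cells. Of 10 class II list genes 6 were at 100 CPM or more, with H2-Ab1 highest in excess CV2 at 0.43. None of these 6 reached 0.5, where 5.15% of all genes at that level did, so nothing is read from this count. The class I and interferon list had 5 of 24 genes at 100 CPM or more, led by H2-K1 at 486.8 CPM, while Ifit3 was at 0.889 CPM and Ifit1 was listed at 0.

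Transcription factors of the alveolar epithelium were present at levels up to 558.1 CPM. Etv5, an ETS factor required for AT2 identity in mice, stood at 558.1 CPM, Id2, an inhibitor of basic helix-loop-helix factors, at 530.3, Cebpa, which controls differentiation, at 329.9 and Nkx2-1, the lung lineage factor, at 325.5. Of the 35 genes on the list 31 were listed in the file and 9 were at 100 CPM or more. None of these 9 reached 0.5, where 5.15% of all genes at that level did. Nfia had the highest value of them at 0.40, then Irx1 at 0.34 and Id2 at 0.23, all above the upper quartile of 0.144 over all genes. Sox2 and Sox9, airway and distal tip factors, were not listed. Among 51 genes of receptors and signalling in AT2 renewal, 44 were listed in the file and 4 were at 100 CPM or more. Over all listed genes 8.38% reached that level, so nothing is read from this count. The 4 were Ctnnb1 (beta-catenin) at 515.2 CPM, the FGF receptor Fgfr2 at 220.8, the ligand Bmp4 at 114.7 and the FGF inhibitor Spry2 at 111.5. Only Spry2 of these 4 passed 0.5, at 0.63. Axin2, a Wnt target, stood at 12.2 CPM with a UMI in 5.82% of cells.

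Transport and junction genes gave 8 of 25 and 7 of 16 members at 100 CPM or more, where 8.38% of all listed genes reached that level. None of these reached an excess CV2 of 0.5, where 5.15% of all genes at that level did. Atp1b1, a sodium pump subunit, stood at 862.7 CPM, the water channel Aqp5 at 426.8, and the claudins Cldn18 and Cldn3 at 667.1 and 503.9. The lysosome list was led by Npc2, a cholesterol carrier of lysosomes, at 6498 CPM. Of its 24 members 11 were at 100 CPM or more, also with none at 0.5, and nothing is read from these counts. Of 33 antioxidant and metallothionein genes 14 were at 100 CPM or more. Cbr2, a carbonyl reductase, led at 3435 CPM, and Mt1, a zinc-binding metallothionein, with 1.36, and Gclc, of glutathione synthesis, with 0.84, were the 2 past an excess CV2 of 0.5.

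The 10 least variable genes at 500 CPM or more had excess CV2 of up to 0.02. Ndufa4, a respiratory chain subunit, had an excess CV2 of -0.0047 at 550.4 CPM, and Spint2, Tmbim6, Atp5h, Ubl5, Ndufa2, Cox7c, H3f3a, Cox4i1 and Bsg followed. By contrast Actb, the cytoskeletal actin, had 0.61 at 2522 CPM, and the nuclear RNA Malat1 0.37 at 40591 CPM, with 4.07, 346.5 and 4644 UMIs per 10000 in the lowest, median and highest cell.

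The most variable genes differed in whether many cells or few carried them. Vps8, a subunit of an endosomal tethering complex, had the highest value at 16.2, with a UMI in 16.7% of cells, 110.9 CPM in all and 35.2% of its UMIs in the highest 1% of cells. Lrg1, a secreted glycoprotein, had 2.29, with a UMI in 68.3% of cells and a 95th percentile of 30.2 per 10000 against a median of 3.1. Chia1, an acidic chitinase, had 2.05 at 331.1 CPM, and Clu, the chaperone clusterin, 2.23 at 112.1 CPM. Pon1, an esterase, and Itih4, a secreted inhibitor chain, had 1.23 and 1.19. Hdc, which makes histamine, had 1.11 at 372.2 CPM, the lipase-like Abhd2 1.04 at 503.6 CPM, and Bex2 1.00 at 475.7 CPM. Cox6a2, a respiratory chain subunit best known from muscle, Hes1, a Notch target, Cst8, Anxa5, a phospholipid-binding annexin, and Smim6 had 1.00, 0.95, 0.94, 0.94 and 0.93. H2afz, a histone variant, had 1.34 with all cells and 0.13 without the 5 cells highest for it, and Tubb4b and Tuba1b, both tubulins, had 0.79 and 0.58 with all cells and 0.17 and 0.18 without theirs. Of the 54 genes 46 stayed at 0.5 or more when the 5 highest cells of each gene were left out.

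Immediate early genes, which respond within minutes to stimuli including tissue dissociation, had an excess CV2 of 0.295 when the list was summed per cell. Of 30 genes on the list, 27 were listed in the file and 9 were at 100 CPM or more, where 8.38% of all listed genes were. Against 5.15% of all genes at that level, 6 of these 9 reached 0.5: Fosb (1.44), Fos (1.29), Dusp1 (1.18), Ier2 (0.89), Junb (0.80) and Jun (0.74). The rest were Btg2 (0.45), Zfp36 (0.43) and Jund (0.16), the highest of the list in level at 659.2 CPM. Fos had 0, 1.31 and 80.9 UMIs per 10000 in the lowest, median and highest cell and 257.8 CPM in all, with a UMI in 51.3% of cells. In the cells not kept Fos stood at 662.8 CPM, and in AT1 cells at P60 at 131.2 CPM, after a different digestion. Heat shock and folding genes gave 16 of 22 members at 100 CPM or more and 1 of these at 0.5, a count from which nothing is read. It was Hspb1 with 0.56, or 0.46 without its 5 highest cells. Hspa1a, the inducible HSP70, was at 2.67 CPM.

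Scd1 was highest in cells with more Lrg1 and less Sftpa1. Over 1965 cells thinned to 2000 UMIs, r with Scd1 was 0.36 for Lrg1, 0.33 for mt-Nd1, 0.32 for Dbi, which carries acyl-CoA, 0.30 for Fabp5 and -0.35 for Sftpa1. In 4 successive groups of cells by Scd1, Scd1 averaged 1379, 3156, 5247 and 10285 CPM. Lrg1 averaged 353.7, 516.3, 819.8 and 1366 CPM and Fasn 396.3, 506.1, 576.4 and 763.7 CPM along the same order. Sftpa1 averaged 41933, 39672, 36181 and 31491 CPM, and Cd74 4998, 4240, 3812 and 3374 CPM. The median depth of the cells before thinning was 5564, 5026, 4770 and 4539 UMIs in the same groups, and mt-Co1 averaged 9390, 10782, 11553 and 13232 CPM. The part of cell depth and mitochondrial share in these relations was not tested. Groups and correlations that take in Scd1 describe these cells only, since the values of 1 cell add to the same 2000 UMIs.

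**Figure D5:**
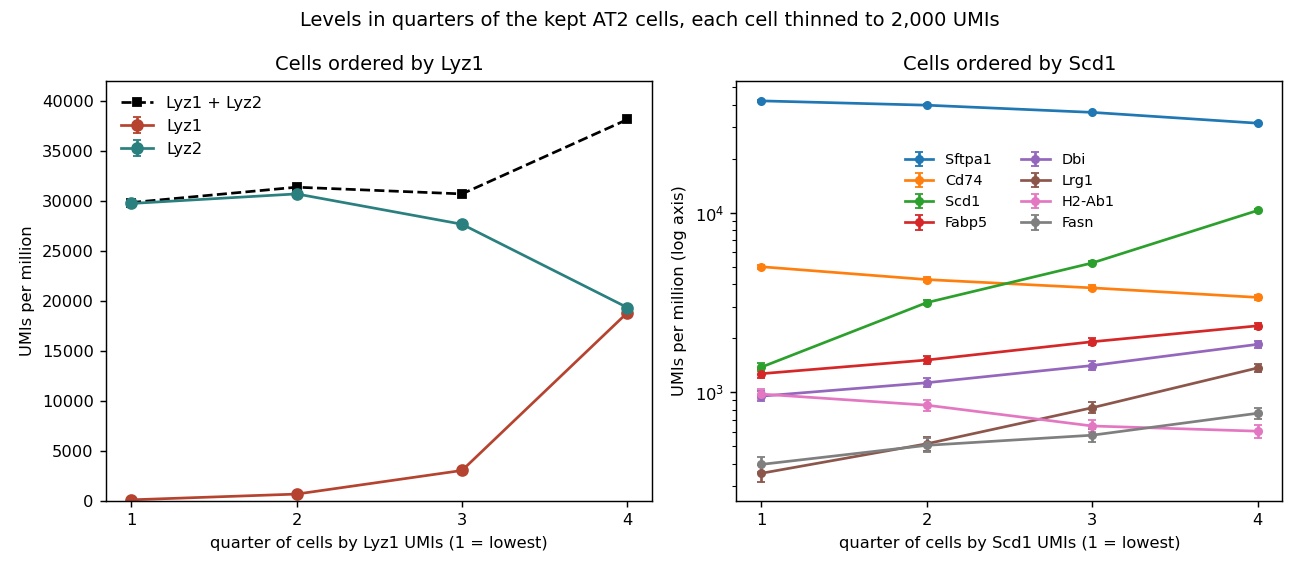
Levels in 4 successive groups of kept AT2 cells thinned to 2000 UMIs, ordered from lowest to highest by Lyz1 (left, linear axis from 0) and by Scd1 (right, log axis), with exact Poisson intervals. Lyz2 is lowest, at 19330 CPM, in the group highest for Lyz1, and Lrg1 and Fasn climb while Sftpa1 and Cd74 decline along Scd1.

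Among the other 10 genes whose nearest partners were looked for, r of 0.3 or more was found for Sftpc and Cd74 alone. For Sftpc the genes were Sftpa1 (0.44), Napsa (0.35) and Sftpb (0.31). Sftpc, Sftpa1 and Sftpb are rule genes whose sum chose the cells, so r among them is a description only. Cd74 had H2-Ab1 (0.41) and H2-Aa (0.40). No gene reached 0.3 with Fos, Lyz1, Ager, Scgb1a1, Ifit3, Mt1, Hspa1a or Cyp51. After thinning, Ifit3 had a UMI in 0.204% of kept cells, Hspa1a in 0.611%, Cyp51 in 9.06%, and Fos and Mt1 in 31.1% each. Counting error keeps r low for genes with so few UMIs, so nothing is read from the lack of partners for Ifit3, Hspa1a, Cyp51, Fos and Mt1. Sftpc had r of -0.35 with mt-Co3 and -0.35 with mt-Co1, an end of the scale that was looked at after the values were seen.

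Clustering of the kept cells gave 3 clusters, which are described by number since every gene was used to form them. Cluster 1 held 873 cells (43.4%) and was led by Lrg1, with 1412 CPM inside it and 323.1 CPM in the other kept cells, followed by Fgg, Dmkn, Retnla, Mfsd2a and Lrp2; Scd1 was at 6856 and 3372 CPM. Cluster 2 held 688 cells (34.2%), led by Snhg11 with 215.2 and 112.4 CPM, then Hc, Malat1, Ppp1r9a, Aox3 and Smim6. Cluster 3 held 450 cells (22.4%), led by S100a6 with 306.8 CPM inside it and 25.6 CPM in the other cells, then Lgals3, Clu, Psca, Anxa5 and Anxa1. In cluster 3 Krt8 stood at 207.4 CPM and Krt18 at 303.3 CPM, with 92.3 and 137.7 CPM in the other cells, while Sftpc stood at 139431 and 136291 CPM. Median depth was 4628, 4910 and 5646 UMIs in clusters 1, 2 and 3. At the coarser resolution of 0.25 all kept cells formed 1 cluster, and at 1 they formed 8.

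Keratins and genes of the transitional state seen after lung injury in mice were each represented by a pair of genes at 100 CPM or more, 2 of the 4 keratins in the file (8 on the list) and 2 of the 17 transitional state genes in the file (20 on the list), where 8.38% of all listed genes reached that level. Krt18 and Krt8, the simple epithelial keratins, stood at 180.2 and 121.8 CPM with excess CV2 of 0.62 and 1.06, and Krt18 had 0.45 without its 5 highest cells. The transitional state genes at that level were Krt8 and Clu, and Lgals3, a galectin, and Cdkn1a, a cell cycle inhibitor, stood at 90.8 and 47.3 CPM. The list took 0.0538% of UMIs, with 0.777% in the highest cell. Cell cycle genes took 0.0378%, and 2 of 1965 thinned cells (0.102%, exact Clopper-Pearson interval 0.0123 to 0.367%) carried UMIs of 3 or more of 11 cycle genes. Mki67, a marker of dividing cells, was at 9.09 CPM, and 11 of the 26 cycle genes were not listed.

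Few kept cells reached the limits set for markers of other cell types. With 3 or more markers of another type (5 for club and ciliated cells), 17 kept cells (0.845%) and 24 of the 82 cells not kept (29.3%) were found; the AT1 list was left aside since AT2 cells share some of its genes. Fibroblast markers summed to 2.86 CPM in kept cells and 1485 CPM in cells not kept, with Col1a1 and Col3a1 listed at 0 in kept cells, and macrophage markers to 13.8 and 1080 CPM, with Mrc1 and C1qa listed at 0, in a sort that selects CD45- cells. Endothelial markers summed to 98.6 CPM, of which Esam gave 79.3, and Cdh5 and Kdr were listed at 0. Neutrophil markers summed to 31.8 CPM in kept cells and 4070 CPM in cells not kept. Club markers summed higher, to 3383 CPM in kept cells and 33040 CPM in cells not kept. In kept cells Scgb1a1 gave 1871 CPM of this and Hp 959.6 CPM. With 4 or more club markers there were 282 kept cells (14%), against 12 with 5 or more. The source of these UMIs was not tested. Basal and erythroid markers were not listed.

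Ager, the receptor known as an AT1 marker, had a UMI in 98.1% of kept cells and stood at 1568 CPM. The AT1 cells at P60 had 21138 CPM. Set against Ager, the other AT1 markers differed among themselves. Igfbp2 was at 0.101% of the Ager level in kept AT2 cells and 8.95% in AT1 cells at P60, and Hopx at 1% and 26.6%. Cldn18 was at 42.5% in kept AT2 cells and 13.4% in AT1 cells, Aqp5 at 27.2% and 13.7%, and Emp2 at 11.8% and 17.2%. The source of Ager UMIs in the kept cells was not tested. Pdpn, the protein by which AT1 cells were sorted, stood at 1.58 CPM in kept AT2 cells. Excess CV2 of Ager was 0.22. Scgb1a1, the secretoglobin of club cells, was different. At 2000 UMIs it was found in 77% of kept cells and in 87.5% of AT1 cells at P60, a separate library after a different digestion. A UMI of it in a kept cell is read neither as expression nor as RNA from outside, and its source was not tested. The median of Scgb1a1 was 8.92 per 10000, and the highest cell had 1349. The highest 1% of cells held 16.7% of its UMIs.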

How the data were processed

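The submitters' processing notes name Cell Ranger 1.3.1, Seurat 2.0.0 and the builds mm10 and hg19, with no role for hg19. The deposited values are natural log values, ln(1 + x), where the values themselves show that the authors scaled each cell's UMIs to 10000. They were unlogged and divided by each cell's smallest step, which gave whole UMIs for 100% of values within a tolerance of 0.05. The AT2 library holds 10379705 UMIs and the AT1 library at P60 7276458.

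Levels are summed UMIs in counts per 1000000 (CPM) with exact Poisson intervals at 95%, and shares of cells carry exact Clopper-Pearson intervals. Excess CV2 is a moment estimate with the cell total as exposure, and it was tested on simulated data. For shares in different cells and for correlations, each cell was thinned at random to 2000 UMIs, which left out 46 kept cells, 38 cells not kept and 157 AT1 cells at P60. Cells were clustered in Scanpy 1.11.5 with igraph 0.11.9 on 2000 variable genes, 20 principal components, 15 neighbours and Leiden resolution 0.5, and leading genes were those with the highest fold after 20 CPM was added to each level. Python 3.11.15 and scipy 1.17.1 were used. With 1 library there are no replicates and no test.

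Genes were named by a rule: the rule genes and Scd1, the 30 highest, the 25 most variable at 100 CPM, the 10 least variable at 500 CPM, up to 6 members per list by level and 3 by variation at 50 CPM, genes with r of 0.3 or more with an anchor, and 6 leading genes per cluster; other genes named from a list, Ciita, Axin2, Ifit3 and the cell type markers among them, were chosen after their values were seen. The members and lists were chosen with earlier results of these data known. The successive groups of cells by Lyz1 and Scd1, the Lyz1 ranges and the negative correlations were added after values were seen. Promoter windows come from RefSeq (GRCm38.p6) and gene positions from GENCODE vM21 on mm10. The promoter of Sftpc and protein sequences were not used here.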

Additional observations from a re-analysis of the deposited data

How the results depend on the processing

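The number of kept cells was 2045 at 0.25 times the median and 1733 at 0.75 times, against 2011. The count of genes at 100 CPM or more stayed between 1038 and 1298 over 8 alternatives, against 1048, and was 2023 at a minimum of 50 CPM, by construction. The count of genes with excess CV2 of 0.5 or more was 54 in the main setting and 46 to 77 over 9 alternatives, with the highest when all cells of the library were used; it was 104 at a minimum of 50 CPM and 27 at 200 CPM, since other numbers of genes are then counted. All 54 genes were among those counted with all cells of the library, without the 17 cells that carried markers of another type and with cells of at least 2000 UMIs, and 49 of them after thinning. The number of lists whose sum had an excess CV2 of 0.1 or more was 11 and stayed at 10 or 11. Among the up to 5 nearest genes of each of the 11 genes whose partners were looked for, 10 pairs reached 0.3 with Spearman rho and 10 with Pearson r. The number of clusters was 1 at resolution 0.25 and 8 at resolution 1, against 3. Kept cells with markers of another type numbered 349 with 2 markers and 2 with 4 markers, against 17 with 3. For club and ciliated cells these limits were 4, 6 and 5 markers. Leaving ribosomal protein, mitochondrial and haemoglobin genes out of the total raised named levels 1.26-fold, and leaving out the rule genes 1.25-fold, in every gene alike. No paired analysis was possible because each group has 1 library. Depth limits the estimate for low genes: counting error alone had a median SD of 0.0349 in excess CV2 at 100 CPM or more.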

Other observations

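The kept cell with the highest share of H2afz (51 of its 7367 UMIs) and the next (61 of 13446, the deepest kept cell) together held 28.3% of all Cdc20 UMIs and 21.8% of all Cenpf UMIs, genes of mitosis, but 3.83% of all H2afz UMIs. Sftpc stood at 981.4 and 931.9 UMIs per 10000 in them, and the rule genes took 12.6 and 14.2% of their UMIs. They were picked after their values were seen.

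The 20 kept cells highest for Scgb1a1, from 152.1 to 1349 UMIs per 10000, had Cyp2f2, a cytochrome P450 of club cells, at 317 CPM (exact Poisson interval 218.2 to 445.2), and the other 1991 kept cells had 37.2 CPM (33.5 to 41.2). Lyz2 stood at 48459 CPM in these 20 cells and 27470 CPM in the other kept cells, and Sftpc at 141142 and 137054 CPM. No UMI of Scgb3a2, another secretoglobin, was found in the 20 cells (exact Poisson upper limit 35.4 CPM), against 1.7 CPM in the others. Median depth was 4923 and 4904 UMIs.

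Retnla, a secreted resistin-like protein below the level at which variation was counted, stood at 38.3 CPM with a UMI in 8.45% of kept cells, and the highest 1% of cells held 45.1% of its UMIs.

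Xist was found in 15 kept cells (0.746%, exact Clopper-Pearson interval 0.418 to 1.23%) at 1.48 CPM, while the Y-linked genes Ddx3y, Eif2s3y, Uty and Kdm5d stood at 40.9, 28.4, 21.7 and 9.19 CPM.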
